A study of Mus musculus with 8 samples.

Results

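The 9 genes described here are the metallothioneins Mt1 and Mt2, the superoxide dismutases Sod1, Sod2 and Sod3, the glutathione peroxidase Gpx3, the haem oxygenase Hmox1, the quinone reductase Nqo1 and the microsomal glutathione S-transferase Mgst1. They were chosen by name from the 31053 genes of the count matrices, with no use of their values, and all 9 were found with at least 1 molecule at both ages. Metallothioneins are small cysteine-rich proteins that bind zinc and copper, and the other members remove superoxide, peroxides, haem, quinones or reactive lipids.

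The data are single-cell RNA counts from whole intervertebral discs of the lumbar and tail spine of mice. All animals carried Tagln-CreERt2, a tamoxifen-inducible Cre under control of the gene for transgelin, and the R26tdTomato reporter. Tamoxifen was given to all of them 5 days after birth, and tissue was collected either on day 10 (P10) or when mice were 8 weeks old, with no group lacking Cre or tamoxifen. Each age has 1 count matrix for 4 listed samples and no map from cells to samples, so each age is 1 pooled library. An effect of age cannot be told apart from one of the library, and no p-value could be computed.

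After filtering, 6999 cells of P10 (median 18300 unique molecular identifiers, UMIs, each a captured RNA molecule) and 6350 cells of 8 weeks (median 14689 UMIs) were kept. Clustering gave 26 clusters in 11 marker-named classes, written with "-like" since the names rest on markers alone, and 3 unnamed clusters. The nucleus pulposus (NP)-like class held 304 cells at P10 and 2303 at 8 weeks. Its name was given from a list of 10 NP markers, so their levels are no independent check of it. Krt8 stood at 3619 and 2827 counts per 1000000 UMIs (CPM), T at 1327 and 1480 CPM, and Car3 at 21225 and 18284 CPM. Noto, a notochord factor of the same list, was at 0 in NP-like cells of both ages. Foxa2 was lower in NP-like than in chondrocyte-like cells at P10 (5.53 against 20.6 CPM) and at 8 weeks (2.28 against 3.01 CPM). Slc2a1, also of that list, was higher at P10 (501 against 262 CPM) and lower at 8 weeks (397 against 446 CPM). The P10 and 8-week chondrocyte-like cells, 4892 and 1817, lay in different clusters, which bears on every comparison of their ages. At P10 they were clusters 1, 2, 4, 6, 13 and 14, and at 8 weeks mostly cluster 3 (led by Cilp and Tnr) and cluster 8 (led by Hp and Mgp). The libraries share 10 kept cell barcodes.

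Transcription of metallothionein genes is switched on by zinc through the factor MTF1, which binds metal response elements, and also by glucocorticoids and stress. Nqo1, Hmox1 and several glutathione genes are known targets of NRF2, the product of Nfe2l2, which is held back by KEAP1 and acts at antioxidant response elements. The NP is the avascular, notochord-derived core of the disc, and its cells live on glycolysis at low oxygen.

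Mt1 and Mt2 are the members whose promoters can be read most directly beside the data, because they are neighbouring genes and their levels across cell groups were the most alike of any members. In the GENCODE annotation of GRCm38 (mm10) both lie on the plus strand of chromosome 8, Mt2 at chr8:94172664-94173568 and Mt1 at chr8:94179082-94180327, 5513 bases apart. Their promoters, from RefSeq on GRCm38.p6, are shown upstream of the first annotated start, at chr8:94178839-94179081 (Mt1, 243 bases, plus strand) and chr8:94172368-94172617 (Mt2, 250 bases, plus strand). Capitals mark matches to the core of the metal response element, TGCACNC or TGCGCNC on either strand.
Mt1: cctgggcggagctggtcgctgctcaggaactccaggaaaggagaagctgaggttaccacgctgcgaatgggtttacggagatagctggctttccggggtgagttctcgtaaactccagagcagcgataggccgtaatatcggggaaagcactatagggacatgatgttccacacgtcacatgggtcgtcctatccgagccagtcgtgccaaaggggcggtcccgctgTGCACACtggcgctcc
Mt2: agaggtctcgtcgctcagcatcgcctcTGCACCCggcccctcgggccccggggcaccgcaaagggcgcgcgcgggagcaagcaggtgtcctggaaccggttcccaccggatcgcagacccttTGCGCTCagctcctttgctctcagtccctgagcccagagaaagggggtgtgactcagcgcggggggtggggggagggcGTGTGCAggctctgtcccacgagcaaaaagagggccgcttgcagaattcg
The Mt2 stretch holds 3 such cores (2 on the plus strand and 1 on the minus strand), and the Mt1 stretch holds 1. Over the whole RefSeq window, from 250 bases before to 50 bases after the RefSeq start, Mt1 has 3 cores and Mt2 has 4. Of 32851 RefSeq promoter windows of that length, 25.7% hold at least 1 such core, 1.97% at least 3 and 0.517% at least 4. The core of the antioxidant response element, TGACNNNGC on either strand, was found once each in the windows of Mt2 and Sod1 and in 1 of the 2 windows of Mgst1, and occurs in 12.4% of all windows. A window was found for 7 of the 9 members, Sod3 and Hmox1 having none in the table. These matches describe letters only and show no binding.

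The remaining members lie on other parts of the genome, by the same annotation: Hmox1 at chr8:75093621-75100589 and Nqo1 at chr8:107388225-107403206 (minus strand), Sod1 at chr16:90220754-90226329, Sod2 at chr17:13006846-13040063, Sod3 at chr5:52363791-52371418, Gpx3 at chr11:54902453-54910377 and Mgst1 at chr6:138140316-138156755. Mt2 overlaps the antisense gene Gm45774, and Sod1 overlaps Scaf4 on the other strand. Whether the counting used strand is not given in the sources used here. Gm45774 had 74 and 129 UMIs at P10 and 8 weeks, against 23136 and 43426 of Mt2. Scaf4 had 836 and 1899 UMIs, against 9770 and 10983 of Sod1.

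Each member had its own distribution over the cell types of the disc. Mgst1, and to a smaller degree Nqo1, had the highest level in NP-like cells at both ages among the groups of at least 50 cells (11 groups at P10 and 8 at 8 weeks). For Nqo1 that order turned against chondrocyte-like cells in 1 alternative at each age: the log2 ratio of NP-like over chondrocyte-like cells was -0.18 at P10 without cells carrying markers of another class, and -0.38 at 8 weeks with the looser cell filter. Hmox1 was highest in macrophage-like cells and lowest in NP-like cells at both ages. Mt1 was highest in mural-like and Schwann-like cells at P10, and in unnamed cluster 10 at 8 weeks. Sod3 was nearly absent from NP-like and macrophage-like cells. Among the groups of at least 50 cells it was highest at 8 weeks in unnamed cluster 9 and in chondrocyte-like cells. In cluster 9, 7 tendon and 4 connective fibroblast markers were at least 2-fold higher than in the other cells. The 24 connective fibroblast-like cells of 8 weeks, under that size, had 182 CPM of Sod3. Levels are summed UMIs of a cell group per 1000000 UMIs of the same cells, with exact 95% intervals that cover counting error only. They compare one gene between groups and are not corrected for gene length.

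**Figure D1:**
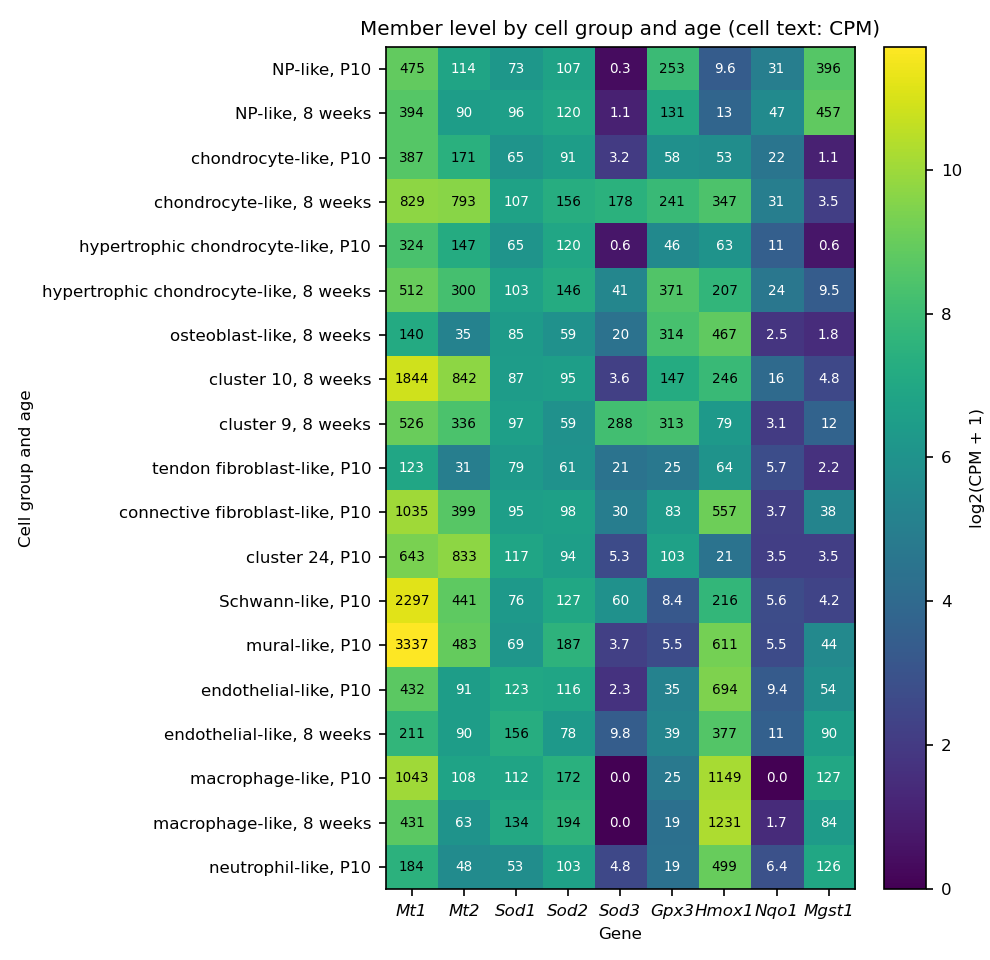
Levels of the 9 genes (columns) in the 19 combinations of cell group and age with at least 50 cells (rows), coloured by log2(CPM + 1) and printed as CPM. Mgst1 stands at 396 and 457 CPM in NP-like cells against 1.13 and 3.47 in chondrocyte-like cells, while Hmox1 shows the opposite order.

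A member was counted as higher or lower at 8 weeks when its CPM differed at least 2-fold and both sums together held at least 100 UMIs. These are counts over pooled cells, not tests. In NP-like cells 0 of 8 members were at least 2-fold higher, where 15% of 11318 genes were, and 0 of 8 were at least 2-fold lower, where 2.79% were. Chondrocyte-like cells had 6 of 9 members higher (Mt1, Mt2, Sod3, Gpx3, Hmox1 and Mgst1), against 27.3% of 12677 genes, and 0 lower, against 6.41%. Hypertrophic chondrocyte-like cells likewise had 6 of 9 higher (Mt2, Sod3, Gpx3, Hmox1, Nqo1 and Mgst1), against 20.1% of 9139 genes, and 0 lower, against 9.60%. All P10 cells of that class were in cluster 12, and 510 of its 651 cells of 8 weeks in cluster 11. Within cluster 12 Nqo1 had a ratio of 0.53, under 2-fold, and Sod3 and Mgst1 had too few UMIs. Endothelial-like cells had 0 of 7 higher, against 6.77% of 6190 genes, and 1 lower (Mt1), against 2.62%. The median log2 ratio of the members, 8 weeks over P10, was 0.18 in NP-like cells (0.35 over all genes), 1.62 in chondrocyte-like cells (0.45), 1.16 in hypertrophic chondrocyte-like cells (0.17) and -0.01 in endothelial-like cells (0.18). Thinning every cell to 2000 UMIs left 6 of 15 member-class pairs at least 2-fold higher in the last 3 classes, where all UMIs gave 12 of 25.

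**Figure D2:**
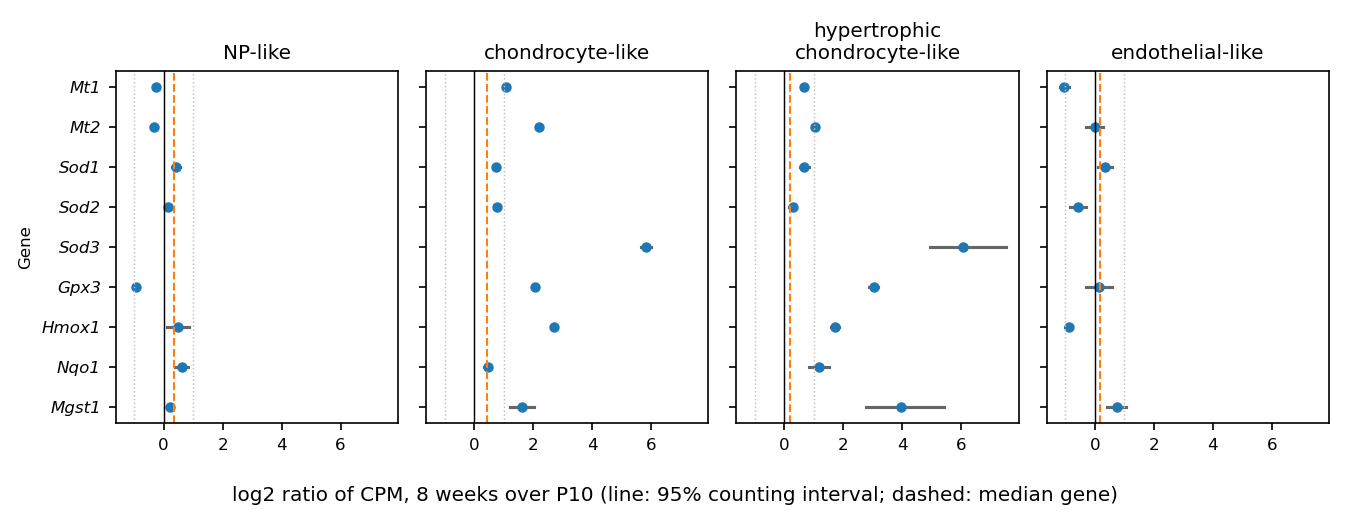
Log2 ratio of CPM, 8 weeks over P10, of each member in the 4 classes that held 100 cells or more in each library; points are ratios, bars 95% counting intervals, dotted lines mark 2-fold and the dashed line the median over all genes. Members under 100 UMIs have no point (Sod3 in NP-like and endothelial-like cells, Nqo1 in endothelial-like cells). In NP-like cells the 8 points lie within 2-fold, while Sod3 reaches 5.82 and 6.06 in the chondrocyte-like and hypertrophic classes.

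Other measures differed between the ages in the same classes. The summed level of 10 dissociation and heat shock genes was 5673 CPM at P10 and 8541 at 8 weeks in NP-like cells, but 6428 and 15413 CPM in chondrocyte-like cells, and 5333 and 15012 CPM in the hypertrophic class. The 12 chondrocyte markers summed to 106403 CPM at P10 and 41235 at 8 weeks in chondrocyte-like cells. In the hypertrophic class the 10 tendon fibroblast markers summed to 2726 CPM at P10 and 23289 at 8 weeks, and the median depth was 38300 and 15549 UMIs. The part of these differences in the member ratios was not tested.

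Mgst1 is a membrane-bound enzyme that joins glutathione to reactive lipids and reduces lipid peroxides. Of all members it differed most between NP-like and chondrocyte-like cells at P10. At 8 weeks the log2 ratio furthest from 0 was that of Sod3, in the opposite direction (-7.75 to -6.91). The Sod3 interval overlapped in size with that of Mgst1 (6.76 to 7.34). The level of Mgst1 in NP-like cells was 396 CPM (381.5 to 411.9) at P10 and 457 CPM (450.6 to 463.3) at 8 weeks, with a UMI in 92.8% and 93.0% of cells. Chondrocyte-like cells had 1.13 and 3.47 CPM, with a UMI in 1.57% of cells at P10 (median depth 19431 UMIs, against 17518.5 in NP-like cells) and 4.35% at 8 weeks (13533 against 15449). On the CPM scale this is 351-fold higher in NP-like cells at P10 and 132-fold at 8 weeks. The 8-week log2 ratio of 7.04 was 4.01 when each library was clustered on its own, where chondrocyte-like cells had 30.2 CPM. With cells thinned to 2000 UMIs, 52.5% and 58.4% of NP-like cells kept a UMI, against 0.185% and 1.11% of chondrocyte-like cells.

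The chondrocyte-like level of Mgst1 at 8 weeks was 0.759% of the NP-like level, and those of the NP keratins Krt8 and Krt19 and of Car3 were 0.543%, 0.700% and 0.479%. Of the other NP markers set against it there, Krt18 was at 1.01% of its NP-like level, Cd24a at 11.6% and Slc2a1, a glucose transporter gene of wide expression, at 112%. Whether the Mgst1 UMIs of chondrocyte-like cells came from NP cells was not tested. The 2-fold count of Mgst1 in this class, at 117 and 98 UMIs, should be read beside those shares. In the hypertrophic class the ratio of 3.95 (2.78 to 5.42) rested on 6 UMIs at P10 and 108 at 8 weeks. Of the latter, 84 were in 5 cells of cluster 12, and the same 5 cells held 1932 Car3 UMIs.

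Outside the NP, Mgst1 also had a level in immune and vascular cells. Macrophage-like cells had 127 CPM at P10 (97.1 to 163.7) and 84.1 at 8 weeks (62.2 to 111.2), and neutrophil-like cells of P10 had 126 CPM (99.3 to 156.8). The 28 neutrophil-like cells of 8 weeks had 289 CPM (183.0 to 433.1), which is 63.2% of the NP-like level. In the 29 osteoblast-like cells of P10 it was 146 CPM, with 63 of 85 UMIs in 1 cell. The keratin Krt18 was at 0 in macrophage-like and neutrophil-like cells at P10, and Car3 there was at 0.0999% and 0.0911% of its NP-like level. Krt8 and Krt19 were also under 1% of it, while Cd24a was at 3.45% and 15.5% and Slc2a1 at 14.0% and 31.2%. In endothelial-like cells Mgst1 was 54.2 CPM at P10 against 90.0 at 8 weeks, with a log2 ratio of 0.73 (0.42 to 1.05). At P10 these cells held 479 Krt8 UMIs, of which 478 were in 5 cells, while Mgst1 was found in 46 of 119 cells. At 8 weeks NP markers were found in more of them, with Car3 in 85, Krt8 in 35 and Mgst1 in 76 of 132 cells. Mgst1 was 70.4 CPM at 8 weeks once cells with other-class markers were left out.

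Among the metallothioneins, Mt1 in NP-like cells was 475 CPM at P10 (458.6 to 491.8) and 394 at 8 weeks (388.0 to 399.8). Mt2 was 114 CPM (105.7 to 122.0) and 90.4 CPM (87.6 to 93.2). Both were slightly lower at 8 weeks, by log2 ratios of -0.27 and -0.33, except within the cycling cluster 18, where the ratios were 0.52 and 0.15. Chondrocyte-like cells differed in the opposite sense: Mt1 was 387 CPM at P10 and 829 at 8 weeks (log2 ratio 1.10, 1.08 to 1.12), and Mt2 was 171 and 793 CPM (2.21, 2.18 to 2.24). Relative to the median gene the ratio of Mt1 in that class was 0.65, under 2-fold. In the hypertrophic class Mt1 was 324 and 512 CPM and Mt2 147 and 300 CPM. Within its cluster 12, led by Col10a1 and Ihh and holding 259 and 141 cells, Mt1 was 324 and 891 CPM, a ratio of 1.46 (1.39 to 1.53).

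Endothelial-like cells stood on the other side. There Mt1 was 432 CPM at P10 (407.6 to 458.0) and 211 at 8 weeks, or -1.04 (-1.19 to -0.88) as a log2 ratio, while Mt2 was 91.0 and 90.4 CPM. The Mt1 ratio reached 2-fold in 8 of 10 alternatives, and with each cell weighted equally it was -0.91. At 8 weeks 31 of the 132 cells carried markers of another class, and without them Mt1 was 34.8 and Mt2 18.2 CPM, so most of the 8-week level was in those cells. For P10 this alternative left under 100 cells and gave no value. Among classes with under 100 cells at an age, Mt1 was 1043 CPM at P10 and 431 at 8 weeks in macrophage-like cells, 3337 and 1066 CPM in mural-like cells, and 117 and 140 CPM in osteoblast-like cells.

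The highest metallothionein levels were in small or unnamed groups. At P10 Mt1 reached 3337 CPM in 50 mural-like cells and 2297 CPM in 63 Schwann-like cells, and neither interval overlapped that of the next group. At 8 weeks cluster 10 (567 cells, led by Serpina1a, Rspo4 and Gjb6, all from 8 weeks) had 1844 CPM of Mt1 and 842 of Mt2. Its summed dissociation and heat shock genes, at 35818 CPM, were above those of every other group of at least 50 cells, and their part in the metallothionein level was not tested. Metallothionein UMIs were unevenly spread over cells: in cluster 0 at 8 weeks, the 10% of cells with the most Mt1 UMIs held 60.9% of them, against 31.8% for Mgst1.

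Mt1 and Mt2 did not keep one proportion across cell types. Mt2 made up 19.3% of metallothionein UMIs in NP-like cells at P10 (18.1 to 20.6) and 18.7% at 8 weeks (18.1 to 19.2), intervals that overlap. In chondrocyte-like cells the share was 30.7% at P10 and 48.9% at 8 weeks, and in endothelial-like cells 17.4% and 30.03%. It ran from 9.39% in macrophage-like cells of P10 to 56.4% in cluster 24 of P10, 55 cells led by muscle precursor genes such as Pax7, Myf5 and Myod1. So the NP-like share stayed in the lower range while the chondrocyte-like share differed between ages. The P10 chondrocyte-like and hypertrophic shares (30.7% and 31.2%) overlapped each other in their intervals.

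**Figure D3:**
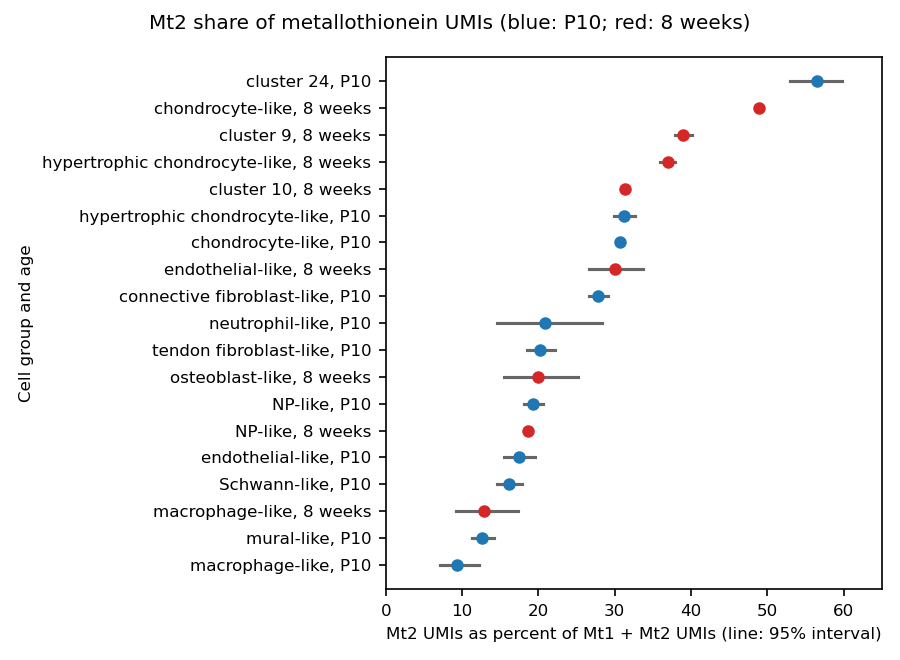
Mt2 UMIs as a percentage of Mt1 plus Mt2 UMIs in each cell group and age with at least 50 cells; points are shares, bars 95% binomial intervals, blue P10 and red 8 weeks. NP-like cells sit at 19.3% and 18.7%, and chondrocyte-like cells at 30.7% and 48.9%.

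The 3 superoxide dismutases differed in how evenly they were spread. Sod1, the cytosolic copper and zinc enzyme, ranged over groups of at least 50 cells only from 53.2 CPM (neutrophil-like, P10) to 156 CPM (endothelial-like, 8 weeks). In NP-like cells it was 72.7 CPM at P10 (66.3 to 79.4) and 96.2 at 8 weeks (93.3 to 99.2). Sod2, the mitochondrial manganese enzyme, was 107 and 120 CPM in NP-like cells and 90.7 and 156 CPM in chondrocyte-like cells. Its NP-like ratio of 0.16 turned to -0.19 relative to the median gene. In endothelial-like cells Sod2 was 116 CPM at P10 and 77.5 at 8 weeks, a ratio of -0.58 (-0.86 to -0.31). Among neighbours in the P10 order of Sod1 levels, the intervals overlapped for every pair but connective and tendon fibroblast-like cells.

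Sod3, the secreted superoxide dismutase that binds to the extracellular matrix, behaved differently. NP-like cells held 2 UMIs at P10 (0.299 CPM) and 49 at 8 weeks (1.12 CPM), too few for a ratio under the rule above. Macrophage-like cells had 0 UMIs at both ages, which allows up to 6.36 CPM at P10 and 5.15 CPM at 8 weeks (3 counts per group). Chondrocyte-like cells went from 3.16 CPM (2.82 to 3.52) at P10 to 178 CPM (173.2 to 183.1) at 8 weeks, and from a UMI in 3.74% to one in 52.8% of cells. The same shares were 0.658% and 1.56% in NP-like cells, whose median depths were 17518.5 and 15449 UMIs against 19431 and 13533. The log2 ratio was 5.82 (5.66 to 5.98), but with the looser cell filter, which regrouped the clusters, it was 0.01.

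The 8-week Sod3 signal was in particular clusters. Cluster 3 had 301 CPM (292.7 to 309.5), whereas cluster 8, the other large chondrocyte-like cluster of 8 weeks, had 2.82 CPM (1.87 to 4.07). Unnamed cluster 9, led by Angptl7, Clec3b and Prg4, had 288 CPM. In the hypertrophic class Sod3 was at 0.615 and 41.0 CPM, a ratio of 6.06, but within cluster 12 it had only 6 and 7 UMIs, and 460 of the 467 UMIs of 8 weeks were in cluster 11. At P10 the highest levels were 60.4 CPM in Schwann-like and 30.01 CPM in connective fibroblast-like cells.

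Gpx3, the secreted selenium-dependent peroxidase, had the ratio between ages furthest from 0 in NP-like cells among the 8 members with at least 100 UMIs. This order did not hold without cells carrying markers of another class, where Nqo1 and Hmox1 were further from 0. It stood at 253 CPM at P10 (240.6 to 264.9) and 131 CPM at 8 weeks (127.7 to 134.5), which is -0.95 (-1.02 to -0.87) on the log2 scale. The ratio was -1.51 within cluster 0, -0.77 within cluster 18 and -0.60 without cells that carry markers of another class, which numbered 56 among the 304 P10 cells of the class and 131 among its 2303 cells of 8 weeks. Without those cells the P10 level was 175 CPM. Relative to the median gene it was -1.30.

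In cartilage cells Gpx3 stood the other way round. Chondrocyte-like cells had 57.7 CPM at P10 and 241 CPM at 8 weeks, a ratio of 2.06 (2.01 to 2.11). Hypertrophic chondrocyte-like cells had 45.7 and 371 CPM, a ratio of 3.02 (2.88 to 3.16), which was 1.54 within cluster 12 and 0.77 with coarser clustering (resolution 0.5). Among groups of at least 50 cells, NP-like cells were therefore the highest of 11 at P10 and the sixth of 8 at 8 weeks. The 29 osteoblast-like cells of P10, under that size, stood above them at 405 CPM (355.3 to 460.5). Endothelial-like levels were 35.0 and 38.8 CPM, with an interval of the ratio from -0.29 to 0.59. They rested on few cells: the 1% of cells with the most Gpx3 UMIs held 54.8% of them at P10 and 56.3% at 8 weeks. With the doublet score limit of 0.25 the P10 level was 7.32 CPM and the ratio 2.45, and without cells carrying markers of another class the 8-week level was 5.54 CPM.

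Hmox1, which breaks haem down to biliverdin, iron and carbon monoxide, was at its lowest in NP-like cells. They had 9.57 CPM at P10 (7.37 to 12.2) and 13.3 CPM at 8 weeks (12.2 to 14.4), with a UMI in 12.5% and 15.6% of cells. Macrophage-like cells had 1149 and 1231 CPM, with a UMI in 62.7% and 59.2% of cells despite a median depth of 5691 and 6909.5 UMIs. Endothelial-like levels of Hmox1 were 694 CPM at P10 and 377 CPM at 8 weeks, a ratio of -0.88 (-1.0 to -0.76). Without cells carrying markers of another class the 8-week level there was 170 CPM, and P10 gave no value. Chondrocyte-like cells had 53.1 and 347 CPM, a ratio of 2.71 (2.66 to 2.76), which stayed at least 2-fold in all 12 alternatives. Within the hypertrophic cluster 12 Hmox1 was 63.4 and 191 CPM.

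Nqo1, which reduces quinones with NADH or NADPH, ran from 0 to 47.4 CPM over the 19 groups of class and age. It was 31.1 CPM at P10 (27.0 to 35.6) and 47.4 CPM at 8 weeks (45.4 to 49.5) in NP-like cells, and 22.2 and 30.7 CPM in chondrocyte-like cells. The NP-like ratio between ages was 0.61 (0.40 to 0.82), and within cluster 0 it was -0.08. Without cells carrying markers of another class it was 1.16, and that of Hmox1 was 1.04 in place of 0.48, so that 2 of 8 members were then at least 2-fold higher. Macrophage-like cells had 0 Nqo1 UMIs at P10 (up to 6.36 CPM for 3 counts) and 1 at 8 weeks. At 8 weeks cluster 8 had 67.3 CPM, above the NP-like level, and cluster 3 had 9.34 CPM.

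NP-like cells were also set directly against chondrocyte-like cells of the same library. At P10, 2 of 9 members were at least 2-fold higher in NP-like cells (Mgst1 with a log2 ratio of 8.46 and Gpx3 with 2.13), against 21.1% of 12160 genes. Another 2 were at least 2-fold lower (Hmox1 with -2.47 and Sod3 with -3.40), against 15.5%. At 8 weeks, 1 of 9 was higher (Mgst1, 7.04), against 18.8% of 12365 genes, and 4 were lower, against 14.8%: Mt1 (-1.07), Mt2 (-3.13), Hmox1 (-4.70) and Sod3 (-7.32). Gpx3 was thus higher in NP-like cells at P10 and, with -0.88, lower at 8 weeks. The 8-week ratio of Gpx3 kept its sign in all 11 alternatives. At resolution 2 it was only -0.09, with chondrocyte-like cells at 140 CPM. With the looser cell filter, Sod3 in chondrocyte-like cells of 8 weeks was 3.23 CPM, against 178 CPM here. Sod1 and Sod2 stayed within 2-fold at both ages.

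Within the NP-like class the members divided by cluster. At 8 weeks, cluster 0 (1219 cells, led by Nrn1 and Sostdc1) had 436 CPM of Mt1 and cluster 5 (956 cells, led by Inmt, Wnt16 and Irf7) had 183 CPM. Mgst1 showed the reverse, with 360 CPM in cluster 0 and 820 CPM in cluster 5. The log2 ratio of cluster 0 over cluster 5 was 1.25 for Mt1, 1.42 for Mt2, 2.16 for Gpx3, 1.08 for Nqo1 and -1.19 for Mgst1, while Sod2 had 0.09 (0.00 to 0.19). These clusters also differed in depth, with medians over both ages of 19965.5 and 9792 UMIs, and its part was not tested. The members had been left out of the genes used for clustering, but clusters of the same cells are no independent groups, and these values are a description.

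A like division was present at P10. Cluster 17 (201 cells, led by Car1, Myl7, Tagln, Acta2 and Krt7) had 624 CPM of Mgst1 (597.2 to 651.4), 327 of Mt1 and 126 of Gpx3. The 53 P10 cells of cluster 0 had 203 CPM of Mgst1, 787 of Mt1 and 455 of Gpx3, and the 42 of the cycling cluster 18 had 119, 468 and 309 CPM. Most P10 NP-like cells were thus in a cluster that held 2 cells of 8 weeks, so the NP-like ratios between ages mix clusters. Inside cluster 0 the ratio of Mt1 was -0.85 (-0.93 to -0.77), of Mt2 -0.95 (-1.11 to -0.78) and of Mgst1 0.82 (0.67 to 0.98), each further from 0 than over the whole class.

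**Figure D4:**
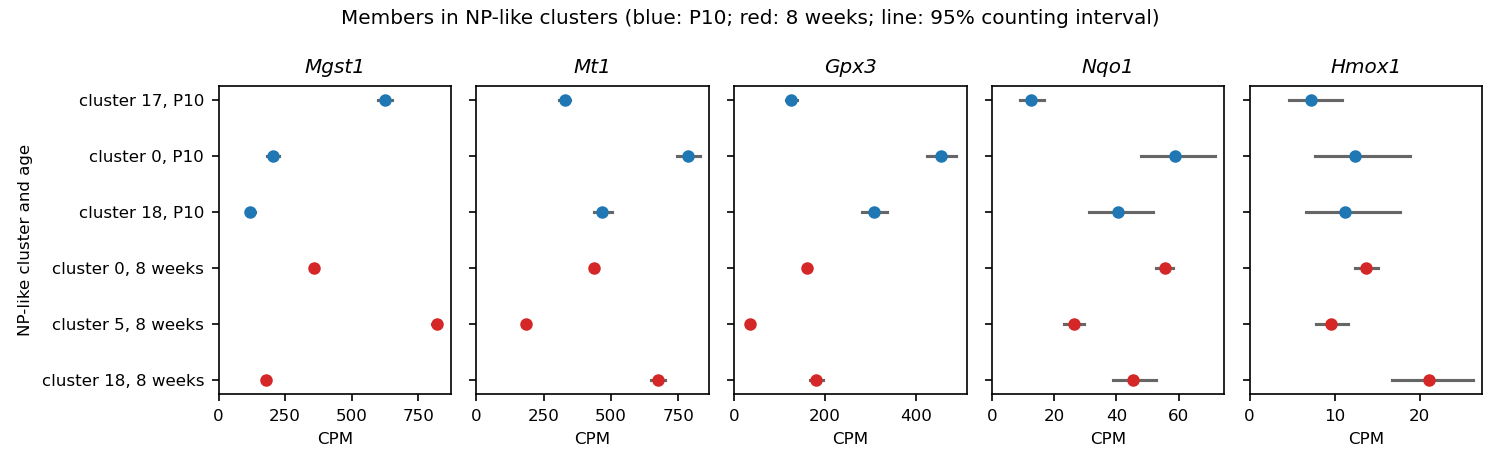
CPM of 5 members in the NP-like clusters of each age with 42 or more cells; points are levels, bars 95% counting intervals, blue P10 and red 8 weeks, with a separate axis from 0 for each gene. Mgst1 is highest in cluster 17 of P10 and cluster 5 of 8 weeks, where Mt1 and Gpx3 are lowest within each age.

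The matrices of exogenous sequences were used for a split of NP-like cells by at least 10 UMIs of WPRE4, the name of an entry in the authors' exogenous reference. Whether that entry marks recombined cells was not tested. At 8 weeks 1288 cells were at or above 10 UMIs and 1015 below, with median depths of 15444 and 15487 UMIs. Mt1 was 330 CPM in the cells with more WPRE4 and 488 CPM in the others, which gives -0.56 (-0.61 to -0.52) on the log2 scale. It was -0.76 for Mt2, -0.66 for Gpx3 and 0.37 (0.33 to 0.41) for Mgst1, and each had the same sign within clusters 0, 5 and 18. Over the whole class none of the 8 members with at least 100 UMIs reached 2-fold. Within cluster 5, where median depths were 11048 and 5975 UMIs, Mt2 did, at 28.3 and 65.6 CPM (-1.21, -1.49 to -0.93). At P10 the ratios of Mt1, Mt2, Gpx3 and Mgst1 were 0.10, 0.02, -0.02 and 0.00, each with an interval that includes 0, over 203 and 101 cells. Inside cluster 17 of P10 they were 0.56 for Mt1, 0.92 for Mt2 and -0.43 for Mgst1, of the opposite sign to 8 weeks. Median depths there were 16076.5 and 11578 UMIs, and the metallothionein ratios rested on few cells. The 1% of cluster 17 cells with the most UMIs of the gene held 31.3% of those of Mt1 and 26.4% of those of Mt2.

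Other genes of these pathways were taken from 7 lists of 8 to 16 genes. In NP-like cells the glutathione list had 2 of 13 tested genes at least 2-fold higher at 8 weeks and 0 lower, with a median log2 ratio of 0.19. That count is near the 15% of all genes that were higher in this class (2.79% were lower). The 2 genes were Mgst3, at 36.6 and 79.2 CPM (ratio 1.11), and Mgst2, at 0.897 and 6.85 CPM (2.93, on 6 UMIs at P10). The peroxidases with the most UMIs differed less, Gpx4, which protects membranes from lipid peroxides, being at 625 and 749 CPM and Gpx1 at 302 and 311 CPM. Gstm1 was 312 and 212 CPM and Gpx8 188 and 147 CPM.

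Of 13 genes for thioredoxin and peroxide removal, 0 passed 2-fold either way in NP-like cells (median 0.24). Thioredoxin itself, Txn1, was 496 and 528 CPM, and the peroxiredoxins Prdx1, Prdx2 and Prdx4 were 393 and 326, 476 and 355, and 201 and 157 CPM. Of 13 NRF2 regulators and targets, 0 were higher and 1 lower (median 0.36). The latter was Tkt, the transketolase of the pentose phosphate pathway, at 244 and 122 CPM (-1.003). Nfe2l2 was 22.3 and 36.4 CPM and Keap1 62.2 and 52.2 CPM. Other list members with many UMIs stayed within 2-fold, with Taldo1 at 246 and 306 CPM, Sqstm1 at 202 and 260, Me1 at 119 and 159 and Slc3a2 at 204 and 161.

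Metal and haem handling had 2 of 12 genes higher in NP-like cells and 0 lower (median 0.21), also near the 15% of all genes. These were the zinc exporter Slc30a1, itself a known MTF1 target, at 4.93 and 10.1 CPM (1.03), and the zinc importer Slc39a14, at 49.0 and 103 CPM (1.07). The ferritin chains stood apart, Fth1 at 2719 and 4489 CPM and Ftl1 at 1614 and 1316 CPM. Atox1, a copper chaperone, was 203 and 254 CPM. Mtf1 was 10.6 and 20.2 CPM in NP-like cells, a ratio of 0.92 (0.58 to 1.29), where the median gene had 0.35. The relation of Mtf1 to the levels of Mt1 and Mt2 was not tested.

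The last 3 lists cover responses of which some are known to act on metallothionein or Sod2 genes. In NP-like cells the glucocorticoid list had 2 of 7 genes higher (Sgk1 with 1.29 and Errfi1 with 1.32, median 0.77), with Tsc22d3 at 0.75 and Dusp1 at -0.07. The NF-kappaB list had 2 of 6 higher (Tnfaip3 with 1.51 and Ccl2 with 1.34, median 0.71), with Nfkbia at 0.78 and Cxcl1 at 0.24. Dissociation and heat shock genes had 2 of 10 higher (Fosb with 1.92 and Egr1 with 1.46, median 0.25), with Junb at 0.98, Fos at 0.72 and Jun at -0.06. Against the 15% of all genes that were 2-fold higher in this class, these are counts of 2 in lists of 6 to 10 tested genes.

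In chondrocyte-like cells the same lists differed more between ages. The NF-kappaB list had 7 of 8 genes at least 2-fold higher at 8 weeks (median 2.86), the dissociation list 7 of 10 (1.31) and the glucocorticoid list 6 of 8 (1.20), against 27.3% of all genes. Tnfaip3 was 3.38 and 261 CPM, Ccl2 was 7.22 and 447 CPM, and Nfkbia 169 and 1292 CPM. The antioxidant and metal lists had shares of higher genes nearer to that background, with 6.41% of all genes lower. The glutathione list had 4 of 15 higher, among them Gclc (16.2 and 40.3 CPM), and 4 lower, among them Gpx7 (95.5 and 27.9 CPM) and the cystine transporter Slc7a11 (30.7 and 9.95 CPM). Thioredoxin and peroxide removal had 4 higher and 2 lower of 13, Txnrd1 being at 54.8 and 285 CPM. NRF2 regulators and targets had 4 higher of 13, among them Mafk and Sqstm1, and metal and haem handling 4 of 13. Fth1, which stores the iron that haem breakdown sets free, was 1573 and 3907 CPM.

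The hypertrophic class had 5 of 7 NF-kappaB genes (median 2.75), 5 of 10 dissociation genes and 4 of 8 glucocorticoid genes higher, against 20.1% of all genes. Its medians for the 4 antioxidant and metal lists were between -0.35 and 0.09, so Gpx3, Hmox1 and Sod3 had ratios far above those medians. In endothelial-like cells the NF-kappaB list had 3 of 7 genes higher and the dissociation list 4 of 10, against 6.77%. Mt1 was at least 2-fold lower there, and Hmox1 and Sod2 were lower by less than 2-fold (-0.88 and -0.58). A link between the lists and the members was not tested.

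**Figure D5:**
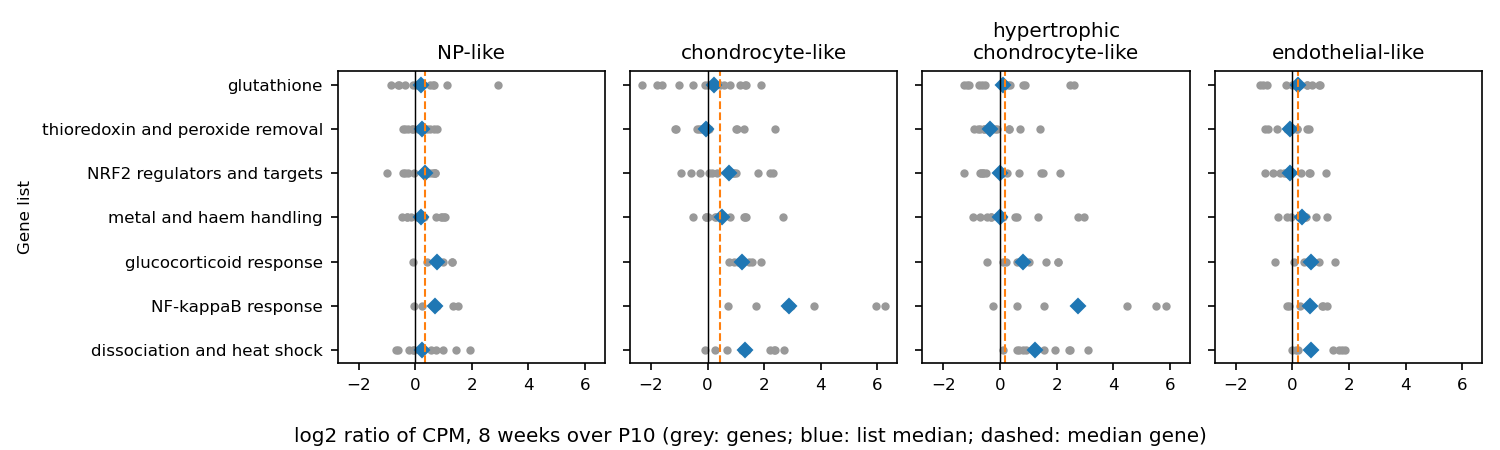
Log2 ratio of CPM, 8 weeks over P10, of the tested genes of 7 lists (grey points) with the list median (blue diamond) and the median over all genes (dashed line) in 4 classes. The NF-kappaB median is 0.71 in NP-like, 2.86 in chondrocyte-like, 2.75 in hypertrophic chondrocyte-like and 0.62 in endothelial-like cells.

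For each member the 3 most similar genes were sought among 9810 genes, by Pearson's r of log2(CPM + 1) over the 19 groups of cell class and age. These groups come from 2 libraries and share ambient RNA and depth, and the values are descriptions. Mt1 and Mt2 were each other's most similar gene (r = 0.79), followed by Dxo and Metap1d (0.72 each) for Mt1 and by Socs3 (0.78) and Gprasp1 (0.76) for Mt2. Sod1 was most like Erap1, Ino80d and Ep400 (all 0.93), and Sod2 like Mta3 (0.77), Cstb (0.76) and Ccdc86 (0.75). Sod3 was most like Acadsb (0.90), Vcan (0.89), a matrix proteoglycan gene that also led cluster 3, and Ltbp3 (0.86). Gpx3 was most like Lpar3 (0.84), Wisp2 (0.82) and Sertad4 (0.78), and Hmox1 like Flvcr1, whose product exports haem, Tmem86a and Jak1 (all 0.85). Nqo1 was most like Arl2bp (0.90), Mgarp (0.88) and Shroom3 (0.87). Mgst1 was most like Irf7 (0.91), an interferon regulatory factor gene that also led cluster 5, Capzb (0.89) and Arhgdib (0.88). Between members other than the metallothioneins, r was from -0.54 (Hmox1 with Nqo1) to 0.39 (Gpx3 with Nqo1).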

How the data were processed

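For each age the authors deposited raw UMI counts of genes and, in a separate matrix, of exogenous sequences. The matrices were made with Cell Ranger 3.1.0, per the file headers. The submitters' processing notes also name Seurat 3 and mm10. All deposited values were whole-number counts. The remaining deposited files have other content, namely cell barcodes and gene names.

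Cells with at least 500 genes, 1000 UMIs and at most 15% mitochondrial UMIs were kept, 6999 of 7690 barcodes (143203550 UMIs) at P10 and 6481 of 7597 (115097999 UMIs) at 8 weeks. Scrublet removed 131 cells (2.02%) at 8 weeks. At P10 it called 0 cells at its threshold of 0.626 and so did not work. Both libraries were clustered together (Scanpy 1.11.5, 2000 variable genes without the 9 members, 30 principal components, 15 neighbours, Leiden resolution 1, seed 7). Classes were named from 19 marker lists. Thinning drew 2000 UMIs per cell and left out shallower cells. Cells with markers of another class had at least 10 UMIs summed over those markers, without markers that the class itself holds.

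Ratios between summed counts have exact conditional binomial intervals, levels exact Poisson and shares Clopper-Pearson intervals, all at 95% and for counting error only. The interval script was tested on simulated Poisson counts, the model that the intervals assume. That run cannot show how the intervals hold for UMIs unevenly spread over cells. The text names all members, the 3 genes most like each, and from each list the 4 genes with the most UMIs in NP-like cells and those past 2-fold there. The other genes of the lists named in the text (Nfe2l2, Keap1, Mtf1 and those of the other classes) were picked after their values were seen. The members and lists were chosen with earlier results of these data known. In all, 12 alternatives were planned and 3 added after the data were seen, within clusters 0, 18 and 12.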

Additional observations from a re-analysis of the deposited data

Results flagged for a closer look

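Some members differed between ages in opposite directions in 2 cell classes, with counting intervals clear of 0 on both sides. These differences between classes were not tested, since each age is 1 library. The values below are log2 ratios of 8 weeks over P10 in the first class minus those in the second. Between NP-like and chondrocyte-like cells the difference was -1.37 for Mt1, -2.54 for Mt2 and -3.01 for Gpx3. Between NP-like and hypertrophic chondrocyte-like cells it was -0.93 for Mt1, -1.36 for Mt2 and -3.97 for Gpx3. Chondrocyte-like against endothelial-like cells gave 2.14 for Mt1, 1.37 for Sod2 and 3.59 for Hmox1. Endothelial-like against hypertrophic chondrocyte-like cells gave -1.70 for Mt1 and -2.59 for Hmox1. Further pairs meet the same condition and are given here as the ratio of each class. Hmox1 was at 0.48 in NP-like and -0.88 in endothelial-like cells. Sod2 was at 0.16 in NP-like and 0.27 in hypertrophic chondrocyte-like cells, against -0.58 in endothelial-like cells. Within cluster 12 the hypertrophic ratio of Sod2 was -0.22. The NP-like ratios of Mt1 and Mt2 are not negative within the cycling cluster 18 (0.52 and 0.15).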

How the results depend on the processing

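No paired analysis was possible because each age has 1 pooled matrix that carries no replicate numbers, and for the same reason no replicate could be left out. Of 13 member-class ratios at least 2-fold, 13 kept their sign in every alternative that gave a value, and 7 stayed at least 2-fold in all of them. The 0 members at least 2-fold higher in NP-like cells became 2 without cells with markers of another class (Hmox1 and Nqo1) and 1 with a minimum of 20 UMIs (Sod3). The 0 lower became 1 (Gpx3) relative to the median gene, 1 without mitochondrial and ribosomal genes in the total, and 1 within cluster 0. In the other 3 classes together, the 12 higher pairs became 6 when cells were thinned. The 1 lower pair became 0 with the looser cell filter, 0 with the mean over cells and 0 without cells with markers of another class. In the last of these, endothelial-like cells of P10 were under 100, so their ratios were not computed. It became 2 with the doublet score limit of 0.25, 2 relative to the median gene, 2 without mitochondrial and ribosomal genes, and 3 at resolution 2. Except where fewer genes passed the UMI minimum (thinning) or a class fell under 100 cells, the cause was not tested. Over pairs of a ratio between ages and an alternative, 223 stayed within the counting interval of the main value and 175 did not. The alternative with a minimum of 20 UMIs only admits more genes, so it cannot change the ratios counted here. NP-like ratios that changed sign somewhere were those of Mt1 and Mt2 (within cluster 18), Sod2 (relative to the median gene, without mitochondrial and ribosomal genes, and thinned), Nqo1 (within cluster 0) and Mgst1 (relative to the median gene, mean over cells, and without cells with markers of another class). Depth limits Sod3 and Hmox1 in NP-like cells, at 2 and 64 UMIs at P10.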
